A study of Mus musculus with 12 samples.

Results

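The genes described here are 9 mouse genes known to respond to glucocorticoids: Fkbp5, Tsc22d3, Sgk1, Klf9, Zbtb16, Mt1, Mt2, Hsd11b1 and Errfi1. They were chosen by symbol, and all 9 were found among the 30743 gene symbols of the deposited table. Liver RNA was sequenced from 12 male C57BL/6J fetuses at 15 ± 0.5 dpc (days post coitum), 6 from dams fed a high-fat diet (HFD, 60 kcal% fat) and 6 from dams fed a control diet (13.5 kcal% fat), each for 12 to 14 weeks. Whole livers were used, so hepatocytes and developing blood cells were measured together, and fewer cells of a type cannot be told apart from less RNA per cell. The value used is the authors' average log2 CPM (counts scaled to a fixed library total, on the log2 scale) of each gene over all 12 livers. It is 1 value per gene, with no value for a single liver or for either diet, so no value below has an SD, HFD was not compared with control here, and the levels cannot be set against the spread between livers.

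Glucocorticoids are steroid hormones of the adrenal cortex. In the cell they bind the glucocorticoid receptor, which is held ready by HSP90 and its co-chaperones, moves to the nucleus and raises or lowers the transcription of target genes. In the fetal liver the hormone is known for promoting the maturation of hepatocytes, and fetal tissues control their exposure to it through enzymes that activate or inactivate it. Fkbp5 encodes an HSP90 co-chaperone that restrains the receptor, and Tsc22d3 encodes GILZ, a leucine zipper protein with anti-inflammatory action. Sgk1 encodes a kinase that regulates ion transport. Klf9 and Zbtb16 encode zinc finger transcription factors. Mt1 and Mt2 encode metallothioneins, small proteins that bind zinc and copper and respond to metals as well as to the hormone. Hsd11b1 encodes the enzyme that regenerates active glucocorticoid inside the cell, and Errfi1 encodes an inhibitor of the EGF receptor.

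Mt1 and Mt2 are shown first by their coding sequences, because these neighbouring, closely related genes were listed at very different levels. Both lie on chromosome 8 of GRCm38 (mm10) on the + strand, Mt2 from 94172664 to 94173568 and Mt1 from 94179082 to 94180327, with 5513 bases between the genes. The coding bases come from GENCODE M21 and are joined over 3 exons, at chr8:94179311-94180193 for Mt1 and chr8:94172848-94173427 for Mt2. Capitals mark the bases that differ between the genes, and each sequence is printed 5′ to 3′.
Mt1: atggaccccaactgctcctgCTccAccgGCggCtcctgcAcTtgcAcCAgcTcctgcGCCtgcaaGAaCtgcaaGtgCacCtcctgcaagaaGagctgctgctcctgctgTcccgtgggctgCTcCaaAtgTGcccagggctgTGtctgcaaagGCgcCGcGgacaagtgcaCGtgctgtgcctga
Mt2: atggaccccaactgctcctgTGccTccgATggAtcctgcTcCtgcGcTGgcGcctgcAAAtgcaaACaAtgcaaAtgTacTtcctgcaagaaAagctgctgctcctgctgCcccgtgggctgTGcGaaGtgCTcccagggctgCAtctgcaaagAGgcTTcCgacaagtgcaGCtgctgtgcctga
The coding sequences have 186 bases each and differ at 38 of them, so that 79.6% are identical. The longest identical run was 20 bases.

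Mt2 had by far the highest CPM of the 9 genes, at 1759 CPM in the authors' average over the livers, or 10.78 on the log2 scale. It lay above 99.8% of the 19652 rows that had any read. It made up 98.7% of the summed CPM of the 9 genes, after subtraction of the value given to rows without reads. Klf9 followed at 8.65 CPM (log2 3.11) and Mt1 at 8.36 CPM (log2 3.06). Tsc22d3, Sgk1 and Errfi1 lay together at 1.85, 1.85 and 1.83 CPM, and Fkbp5 at 1.33 CPM. All 7 of these genes were above 1 CPM, as were 33.1% of all rows and 10171 of the 19652 rows with reads. Zbtb16, at 0.197 CPM, and Hsd11b1, at 0.184 CPM, lay close to 0.152 CPM, the value that the table gives to the 11091 rows without reads. The median of the 9 genes was 0.89 on the log2 scale, against 0.20 for all rows with reads.

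**Figure D1:**
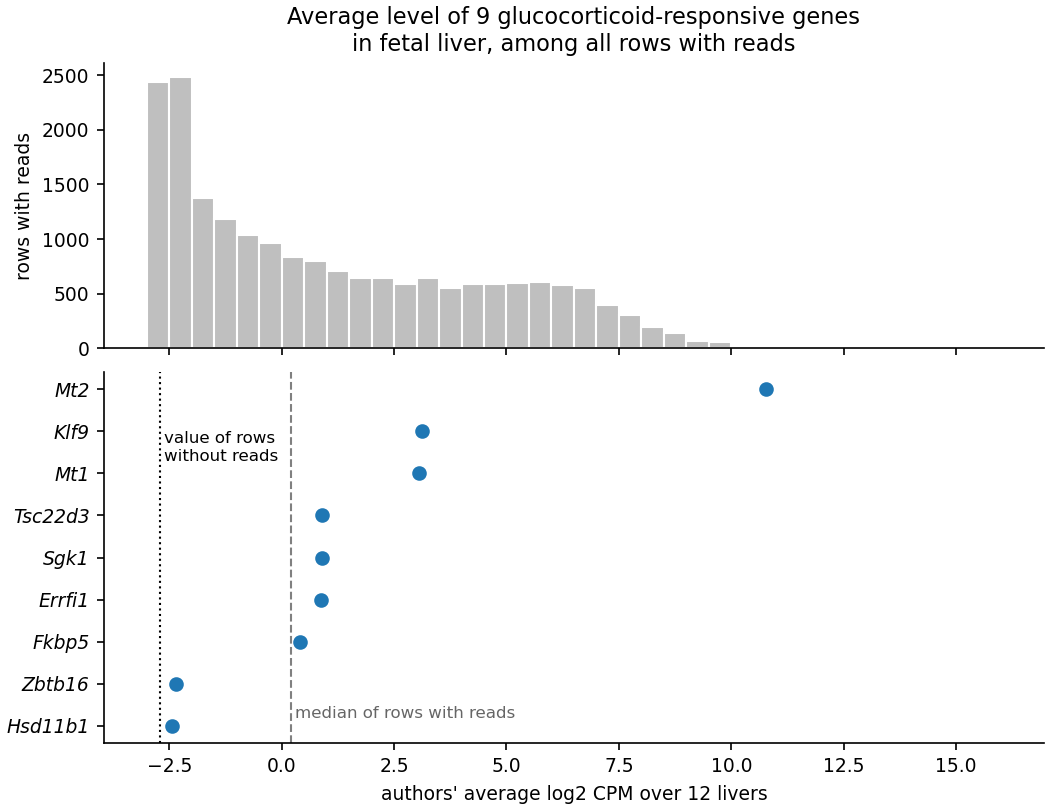
The upper panel plots the number of rows with reads (vertical axis) in bins of the authors' average log2 CPM over 12 livers (horizontal axis), and each point of the lower panel is 1 of the 9 genes on the same axis. Mt2 stands alone at 10.78, 6 genes lie between 0.41 and 3.11, and Zbtb16 and Hsd11b1 sit beside the dotted line of rows without reads at -2.71.

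The number of reads behind these averages is not listed and was estimated. The value of rows without reads fixes the mean library size at 13129748 normalised reads, if the prior count that was added to every gene was 2. With this size, 99.7% of the 4222 rows of 1 to 10 reads came out within 0.1 of a whole number. Larger totals were not checked in this way. With the same library size, about 277173 reads of all 12 livers fell on Mt2, 1338 on Klf9 and 1293 on Mt1. Tsc22d3 and Sgk1 had about 268 reads each, Errfi1 264 and Fkbp5 185, or from 15.4 to 22.3 per liver. Zbtb16 had 7 reads in all livers together (exact Poisson 95% interval 2.81 to 14.4) and Hsd11b1 had 5 (1.62 to 11.7). These intervals cover counting error only. At that depth, any difference between livers in Zbtb16 or Hsd11b1 rests on single reads.

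Levels of different genes can be compared only per length, so the CPM above the value of rows without reads was divided by the length of the union of each gene's exons in GENCODE M21. Mt2, whose exons cover 0.588 kb, had 2992 CPM per kb. Mt1, with 1.25 kb of exons, had 6.59 CPM per kb, so that Mt2 was 454-fold higher per kb by this length. The exon union of Mt1 covers all 1246 bases of the gene, including the introns between its 3 coding exons. This lowers the level of Mt1 per kb and raises the ratio. Before division by length Mt2 was 214-fold higher. The length of the spliced Mt1 message was not used. Klf9 had 1.76 CPM per kb over 4.82 kb and fell behind Mt1 on this scale. Errfi1 had 0.467 CPM per kb (counting interval 0.413 to 0.528), Tsc22d3 had 0.392 (0.346 to 0.442) and Sgk1 had 0.347 (0.307 to 0.391). The intervals of Errfi1 and Tsc22d3 overlapped, as did those of Tsc22d3 and Sgk1, whereas those of Errfi1 and Sgk1 did not overlap. Overlap of 2 intervals does not by itself show that 2 levels are alike, and no pair was tested. The order of these 3 genes depends on the length used. With the longest transcript of each gene in place of the exon union, Errfi1 had 0.550 and Sgk1 0.549 CPM per kb, and Tsc22d3 lay above both at 0.592. Fkbp5, which has the longest exon union of the 9 at 9.47 kb, had 0.124 CPM per kb (0.107 to 0.143), but 0.304 with its longest transcript, a move beyond the counting interval. Zbtb16 and Hsd11b1 had 0.00841 and 0.00747 CPM per kb, and their intervals overlapped as well. Hsd11b1 had 0.0161 CPM per kb with its longest transcript. Without subtracting the value of rows without reads, Zbtb16 had 0.0372 and Hsd11b1 0.0433 CPM per kb. Among 14522 protein-coding genes with reads the median was 0.428 CPM per kb. By exon union, Mt2, Mt1, Klf9 and Errfi1 lay above it and the other 5 below it. The counting intervals of Errfi1 and Tsc22d3 contained this median, so their sides were not resolved.

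**Figure D2:**
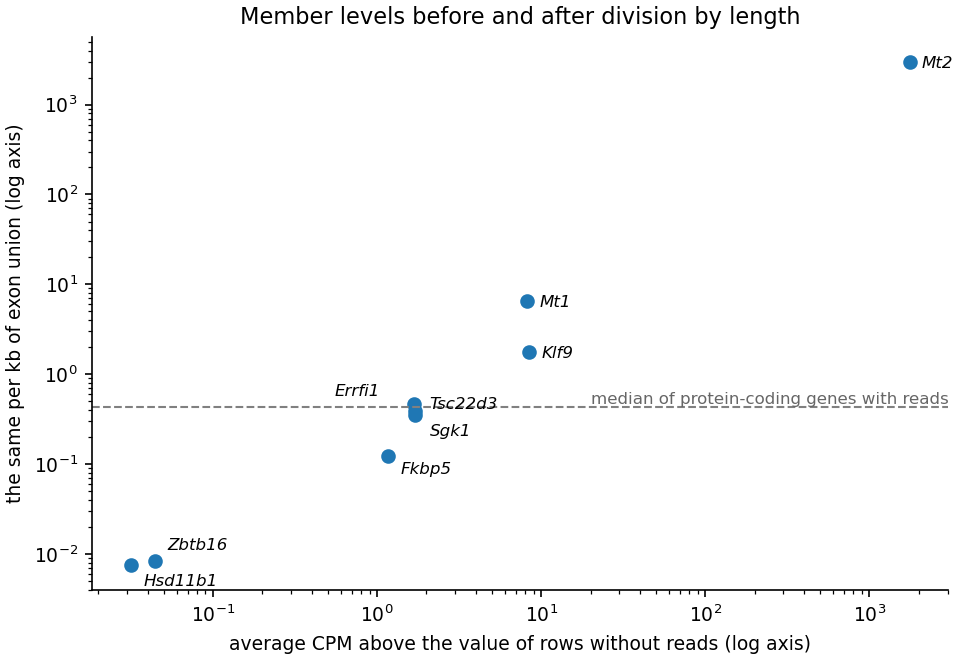
Each point is 1 of the 9 genes, with its average CPM above the value of rows without reads on the horizontal axis and the same per kb of exon on the vertical axis, both logarithmic. Mt2 lies apart at 2992 CPM per kb, Mt1 lies above Klf9 although both have over 8 CPM, and Errfi1, Tsc22d3 and Sgk1 lie around the dashed median of 0.428.

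Several genes with a role in every cell were also listed at low levels. Of 13 genes that every cell uses, a list drawn up after values had been seen, 10 were above 1 CPM, with Eef1a1 at 5951 CPM and Actb at 2581 CPM. Gapdh, a glycolytic enzyme of all cells, was listed at only 5.20 CPM, Tbp at 0.638 CPM, Gusb at 0.312 CPM, and Ppia, one of the most abundant messages of most cells, at 0.165 CPM or about 2 reads. The tissue markers showed the same mixture. Alb at 63314 CPM, Afp at 54525 CPM and Hba-a2 at 49707 CPM were among the highest rows, and 7 of 8 hepatocyte markers and 6 of 7 erythroid markers with a row were above 1 CPM. Alas2, the erythroid enzyme that starts heme synthesis, was nevertheless at 0.704 CPM, Serpina1a at 0.184 CPM, and S100a9 had about 2 reads where its partner S100a8 had 478 CPM. Of the markers of other cells with a row, 4 of 7 myeloid genes, led by Mpo at 759 CPM, and 4 of 4 megakaryocyte genes, led by Ppbp at 251 CPM, were above 1 CPM. So were 4 of 5 endothelial genes, led by Lyve1 at 151 CPM, and 3 of 4 mesenchymal genes, led by Col3a1 at 712 CPM, while the endothelial marker Pecam1 and the mesenchymal marker Pdgfrb had no reads. Of 5 acinar pancreas genes 2 were above 1 CPM, with Cela1 highest at 13.7 CPM and Amy2a5 without reads. The levels of Zbtb16, Hsd11b1, Mt1 and the other low genes are given as the table lists them, and how much message the livers held was not tested.

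A property of the annotation moved with the upper range of these levels; it was picked after levels had been seen. Among 11196 protein-coding genes with 1 curated mRNA in RefSeq, the upper quartile of the average log2 CPM was 4.71 and 29.1% of genes were above 16 CPM. Among 7060 genes with 2 or more curated mRNAs the upper quartile was 1.86 and 12.9% were above 16 CPM. For genes with 1, 2, 3 and 4 or more curated mRNAs, the upper quartiles were 4.71, 2.24, 1.63 and 1.33. The low end went the other way: 24.3% of genes with 1 curated mRNA had no reads, against 18.5% of those with 2 or more, and the lower quartiles were -2.66 and -2.55. The medians of the 4 classes were -0.26, -0.72, -1.07 and -0.93. Genes of like length showed the gap too, with upper quartiles of 4.69 and 1.67 where exons covered 2 to 4 kb and of 5.25 and 1.92 where they covered 4 to 6 kb. Mt2, Klf9, Mt1 and Fkbp5 have 1 curated mRNA, and their median was 3.09 on the log2 scale. Errfi1, Tsc22d3, Zbtb16 and Hsd11b1 have 2 and Sgk1 has 6, and the median of these 5 genes was 0.87. Gapdh, Alas2, S100a9, Pdgfrb and Serpina1a have 2 each and Pecam1 has 4, while Ppia and Tbp have 1. High levels also occurred with several curated mRNAs, as for the hepatocyte markers Ahsg (3, 6781 CPM) and Apoa2 (4, 2251 CPM). Among the relatives of the 9 genes described below, the median was 0.568 CPM with 1 curated mRNA and 25.8 CPM with 2 or more. The other lists that held both kinds had the higher median with 1. The number of transcripts in GENCODE M21, which was looked at first, gave another picture. The median log2 CPM of the same genes was -1.98 with 1 transcript and 0.20 with 8 or more, and the upper quartiles were 2.46 and 3.16, with the highest, 4.27, at 3 to 4 transcripts. The part of either property in the levels of the 9 genes was not tested, and how the reads were assigned to genes is not given in the sources used here.

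**Figure D3:**
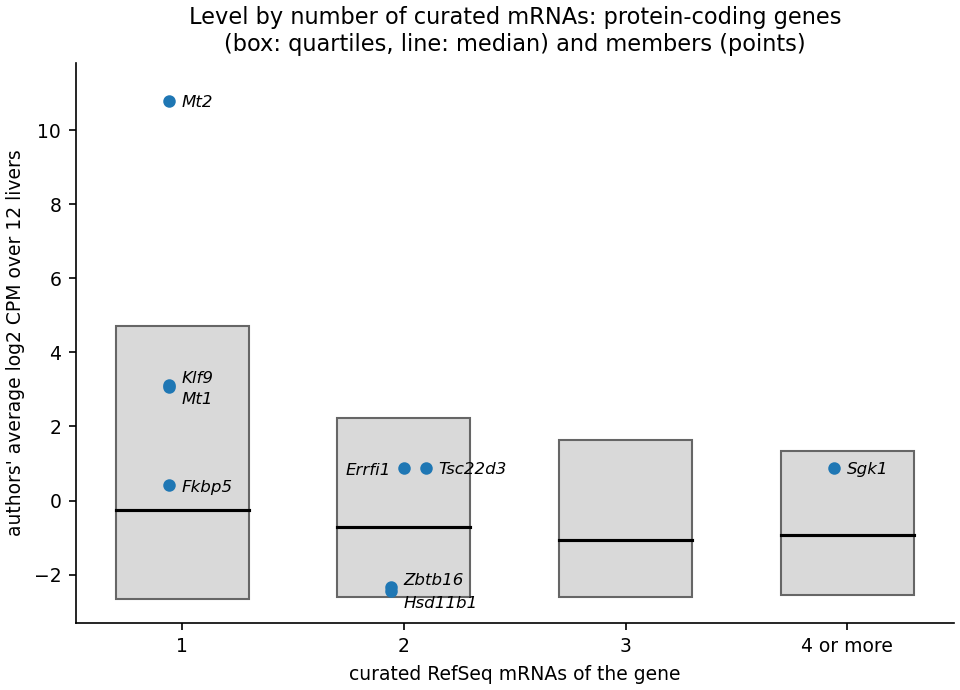
Bars span the lower to the upper quartile of the authors' average log2 CPM (vertical axis) of protein-coding genes grouped by the number of curated RefSeq mRNAs (horizontal axis), black lines are medians and points are the 9 genes. The upper quartile falls from 4.71 with 1 mRNA to 1.33 with 4 or more. The 3 highest of the 9 genes have 1 mRNA, as do 11196 protein-coding genes, against 7060 with 2 or more. Fkbp5, at 0.41, also has 1 and lies below Tsc22d3, Sgk1 and Errfi1, which have 2 or more.

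Sequence shared with other genes was limited, apart from Mt2. No exon base of the other 8 genes was covered by an exon of another gene in GENCODE M21. For Mt2, 432 of 588 exon bases (73.5%) were covered by Gm45774, an antisense RNA on the - strand, which has no row in the table. The library kit did not keep the strand, so reads of Mt2 and of Gm45774 cannot be told apart. Of all stretches of 50 bases in the transcripts, none of Mt1, Klf9, Hsd11b1 or Errfi1 occurred in a transcript of another gene. The share was 0.684% for Fkbp5, 0.456% for Tsc22d3, 0.243% for Sgk1 and 0.192% for Zbtb16. For Mt2 it was 45.8% (254 of 554 stretches), all shared with Gm45774. No stretch of this length was common to Mt1 and Mt2. Only annotated transcripts were searched, not the genome, so unannotated copies of Mt1 were not looked for.

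The messages of the receptor and of the proteins that hold it were listed at very different levels. Of 11 genes of this list, 10 were above 1 CPM, and the median was 126 CPM. Hsp90ab1, the constitutive HSP90, had 3294 CPM, and Fkbp4, the co-chaperone that acts opposite to Fkbp5 and helps the receptor into the nucleus, had 625 CPM. Per kb of exon, Fkbp4 had 223 CPM and Fkbp5 0.124, or 0.304 with its longest transcript as the length. Both genes have 1 curated mRNA, and the part of annotation in this gap was not tested. Stip1, which passes client proteins from HSP70 to HSP90, had 327 CPM, and Ptges3, which encodes the co-chaperone p23, had 126 CPM. The receptor gene Nr3c1 had 2.26 CPM with 5 curated mRNAs, and Nr3c2, which encodes the mineralocorticoid receptor that also binds glucocorticoids, had 5.89 CPM with 1. Hsp90aa1, the inducible HSP90, was the lowest of the list at 0.741 CPM.

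Genes that set the supply of hormone stood at both ends of the range. Serpina6, which encodes the corticosteroid-binding globulin that carries the hormone in blood, was at 3893 CPM, or 2210 CPM per kb, the highest value of the pathway lists on both scales. Hsd11b2, which inactivates glucocorticoid and so works against Hsd11b1, had no reads, and Hsd11b1 itself had 5. H6pd, which supplies the cofactor of the Hsd11b1 enzyme, had 4.80 CPM. Akr1d1 and Srd5a1, reductases that take part in steroid breakdown, had 34.3 and 8.02 CPM. The transporters Abcb1a and Abcb1b, which pump steroids out of cells, had 4.76 and 0.178 CPM.

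Further genes known to be induced by glucocorticoids numbered 18, of which 13 were above 1 CPM and 17 had reads. Their median was 1.90 CPM per kb of exon, against 0.392 CPM per kb for the 9 genes. Igfbp1, a liver-secreted binding protein of insulin-like growth factors, was highest at 410 CPM, followed by Lcn2, which encodes the siderophore-binding protein lipocalin 2, at 114 CPM. The phosphatase gene Dusp1 had 87.6 CPM, and Nfkbia, which encodes an inhibitor of NF-κB, had 27.3 CPM. Among genes for liver enzymes, Tat, for tyrosine breakdown, had 1.79 CPM, Tdo2, for tryptophan breakdown, had 0.420 CPM, and the gluconeogenic genes G6pc and Pck1 had 0.341 and 0.336 CPM. Angptl4 had no reads. All 5 genes named in the last 2 sentences have 1 curated mRNA. Over all pathway lists, with each gene counted once, 35 of 47 genes (74.5%) were above 1 CPM, beside 7 of the 9 and 33.1% of all rows. All rows include 11091 without reads, and of the 19652 rows with reads 10171 were above 1 CPM.

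**Figure D4:**
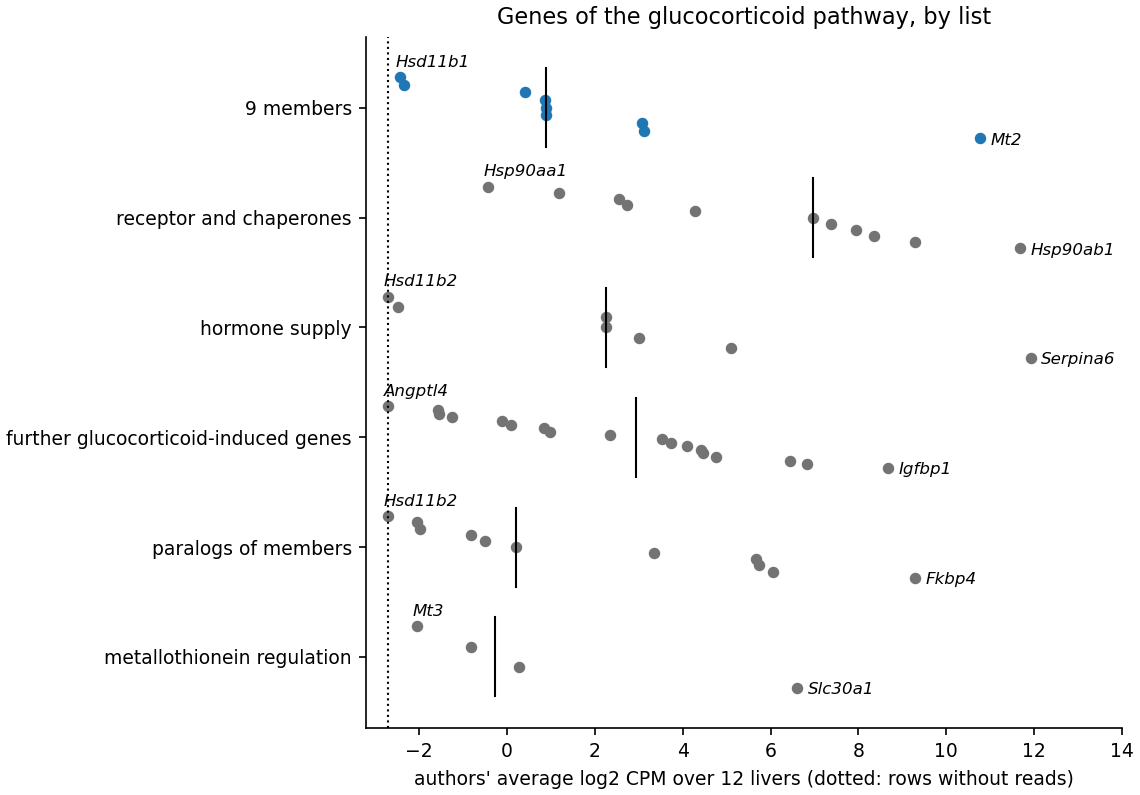
Points are genes, placed by the authors' average log2 CPM over 12 livers, not scaled by length (horizontal axis), in the 9 genes and 5 pathway lists (rows), with a black line at each median and the lowest and highest gene named. The median is 0.89 for the 9 genes, 6.98 for the receptor and its chaperones and 2.95 for further induced genes, and the dotted line marks rows without reads.

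Relatives of the 9 genes lay on both sides of them. Tsc22d4 had 53.0 CPM and Tsc22d1 50.5 CPM, beside 1.85 CPM for Tsc22d3. Per kb of exon these were 7.04, 5.60 and 0.392 CPM. Tsc22d4 has 2 curated mRNAs, as Tsc22d3 does, and Tsc22d1 has 5. For Klf9, the related factors Klf10 and Klf13 had 15.9 and 1.34 CPM per kb beside its 1.76. The kinases Sgk2 and Sgk3 were below Sgk1, at 0.0297 and 0.0390 CPM per kb against 0.347. The metallothioneins Mt3, known mainly from brain, and Mt4, known from stratified epithelium, had 0.242 and 0.568 CPM, about 14 and 66 reads in all livers. Mtf1, the metal-sensing factor that activates metallothionein genes, had 1.21 CPM, and its target Slc30a1, a zinc exporter, had 97.3 CPM.

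Promoter sequence was taken from RefSeq on GRCm38.p6, in entries of 300 bases from 250 before to 50 after a transcription start. Of the 9 genes, 8 matched with 16 entries, of which 6 belong to Sgk1 and 3 to Tsc22d3; Zbtb16 did not match. The motif letters and the stretches to print were picked after promoter sequences had been seen. The promoters of Mt1 and Mt2 are shown because these neighbours were listed at such different levels. Each is printed 5′ to 3′ for the 250 bases before the start, on the + strand of GRCm38.p6, at chr8:94178839-94179088 for Mt1 and chr8:94172368-94172617 for Mt2. Capitals mark the core letters of the metal response element, TGCGCNC or TGCACNC on either strand.
Mt1 promoter: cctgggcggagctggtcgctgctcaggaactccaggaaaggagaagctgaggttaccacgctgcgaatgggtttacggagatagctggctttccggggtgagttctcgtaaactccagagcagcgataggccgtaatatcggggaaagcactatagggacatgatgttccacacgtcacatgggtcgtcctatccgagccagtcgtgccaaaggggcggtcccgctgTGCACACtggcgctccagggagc
Mt2 promoter: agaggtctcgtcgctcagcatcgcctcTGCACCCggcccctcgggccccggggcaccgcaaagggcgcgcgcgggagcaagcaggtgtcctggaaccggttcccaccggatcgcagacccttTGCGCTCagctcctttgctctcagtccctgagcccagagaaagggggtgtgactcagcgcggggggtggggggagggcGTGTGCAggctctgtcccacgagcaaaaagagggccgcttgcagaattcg
Mt1 held 1 match and Mt2 held 3 in these windows. The windows follow 1 annotated start per gene and end at 94179088 for Mt1 and 94172617 for Mt2. The coding sequences begin downstream, at 94179311 and 94172848. Past the first 50 bases after the start, the bases up to the coding sequence were not searched. These counts therefore do not describe all metal response elements near either gene, and their part in the levels was not tested. Over whole entries, including the 50 bases after the start, TGCGCNC matched once in Mt1 and 2 times in Mt2, and TGCACNC matched 2 times in each. The entries of all genes held TGCGCNC in 15.4% and TGCACNC in 12.6% of cases, so either is common in windows of this length.

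The full glucocorticoid response element was searched as AGAACA and TGTTCT with any 3 bases between them, the palindrome that a pair of receptor molecules is known to bind. Only 3 of 32851 promoter entries (0.00913%) held it, and 1 of them belongs to Sgk1. It is shown here in a stretch of 135 bases on the + strand, 5′ to 3′, at chr10:21993641-21993775, beginning at -249 from that start. Capitals mark the match, which lies from -189 to -175.
Sgk1 promoter: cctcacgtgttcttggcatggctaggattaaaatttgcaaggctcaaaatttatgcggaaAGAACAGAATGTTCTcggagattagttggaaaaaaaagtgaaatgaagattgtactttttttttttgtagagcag
The half-site AGAACA, which the palindrome contains on both strands, matched in 4 of the 16 entries, 3 of Sgk1 and 1 of Tsc22d3, beside 19.0% of all entries. The TATA box, searched as TATAAA, matched in 2 entries of Sgk1 and 1 of Errfi1, beside 13.6% of all entries. A match describes letters in these windows and shows no binding. Elements farther from the start were not searched. Sgk1 has a single level, 1.85 CPM, with no value for each of its 6 starts, and which of them its reads came from is not known.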

How the data were processed

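Polyadenylated RNA of 12 whole fetal livers, 6 per diet, was sequenced. Per the submitters' processing notes and the study's methods, the authors used cutadapt 1.2.1, Subread 1.3.6-p1 with mm10, biomaRt and edgeR. The read counter and the normalization are not given in the sources used here. The authors deposited 1 table of 30743 gene symbols, and its average log2 CPM over all livers is the only measurement used. The table also holds a second average column and 8 columns of the authors' own comparison of the diets (fold changes, p-values and adjusted p-values under a common and a tagwise dispersion), all left unused. The planned test of diet needs a value per liver and was not run.

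CPM was computed as 2 to the power of the average. Reads were computed from the value of rows without reads, with a prior count of 2 and mean library size taken as equal over livers; the script for this step was tested on simulated data. For lengths and positions, 21063 symbols were matched to the GENCODE M21 annotation (GRCm38, which is mm10). Curated mRNAs (NM accessions) and promoters came from RefSeq on GRCm38.p6. The percentile is over rows with reads. Computation used Python 3.11.15 with pandas 2.3.3, numpy 2.4.6 and scipy 1.17.1, and plots used matplotlib 3.10.9. The 9 genes and the lists were chosen with earlier results of these data known, and the stretch length of 50 bases after the files were seen. All 9 genes were to be named, and of each pathway list the highest, the lowest with reads, those without reads and those whose role is described. One gene was left out of the list of genes used by every cell and is not reported here.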

Additional observations from a re-analysis of the deposited data

How the results depend on the processing

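The median percentile of the 9 genes was 55.7 among rows with reads, 71.7 among all rows and 14.5 among rows above 1 CPM; Zbtb16 and Hsd11b1 are not above 1 CPM. The median level was 0.392 CPM per kb, 0.550 with the longest transcript as the length and 0.427 without subtracting the value of rows without reads, a choice made after seeing the data. With the longest transcript, 4 of the 9 genes changed place in the order, and Fkbp5, Hsd11b1, Sgk1 and Tsc22d3 moved by over 1.5 times. On the gene's own strand the half-site matched in 2 of the 16 promoter entries and not 4, and before the start alone TGCGCNC matched in 1 and not 3, since fewer letters were searched. The other counts of entries stayed within 1.5 times. Not run were the alternatives for the test of diet, which need a value per liver, and the authors' second average column, since 1 pooled column was used. No paired analysis was possible because the table holds no value for single livers. Depth limits Zbtb16 and Hsd11b1, with 7 and 5 reads in all.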
